A study of Mus musculus with 8 samples.

Results

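The libraries described here are the 2 resting control libraries of B16F10, a mouse melanoma cell line derived from C57BL/6 tumours that spread to the lung. They were selected by their labels as the cells that carried the empty hairpin vector pLKO and received no interferon-gamma (IFN-γ), and they make up 2 of the 8 libraries of the study. The other 6 libraries, which were not used here, are pLKO cells given IFN-γ at 5 ng/ml for 24 hours and cells with a hairpin against Drg2 (shDRG2) with and without that treatment. Each library was made from 1.0 µg of total RNA with an integrity number above 8.5. The control is 1 transduced line, and the labels do not say whether its replicates were separate cultures, so the SD of the 2 values may be technical. No group was compared with another. The account covers which genes were abundant, which melanocyte genes the line kept or lacked, and which genes were silent.

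Melanocytes are pigment cells that arise from the neural crest. They make melanin from tyrosine inside melanosomes, organelles related to lysosomes, with the enzymes tyrosinase, TYRP1 and DCT, and their differentiation programme depends on the transcription factor MITF together with SOX10 and PAX3. Melanomas differ in how much of this programme they keep, and loss of it is often accompanied by neural crest or mesenchymal genes.

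Levels are given on 2 scales. CPM is a gene's count scaled to 1000000 counts of its library, and serves to class a gene as silent or expressed. TPM divides the count by the length of the gene's merged exons before scaling, and is used wherever levels of different genes are compared. A gene was classed as expressed at 1 CPM or more in both libraries and silent at 0 counts in both. The deposited columns summed to 32855974 counts in replicate 1 and 30813905 in replicate 2. A count of 0 in both libraries allows a level of up to 0.0472 CPM, from 3 counts over the group. Such limits cover counting error only, since no molecular tags are recorded. Gene coordinates are those of GENCODE M21 on GRCm38.

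The labelled cell type was set beside markers, which were chosen with earlier results of these data known. All 12 melanocyte markers were expressed, against 49.5% of all protein-coding genes, with a summed share of 1.45% and 1.52% of TPM. They were Tyr, Tyrp1, Dct, Pmel, Mlana, Mitf, Sox10, Mc1r, Gpr143, Slc45a2, Oca2 and Trpm1. Other melanocyte genes, among them Kit, Ednrb, Lef1 and Foxd3, were silent, so the 12 are not a test of cell type. Of 70 markers of other cell types, 42 were silent and 7 were expressed. Over 9028 genes with at least 10 CPM in either, the median absolute difference between them was 0.094 on the log2 scale, or 1.07-fold, and 95% of genes differed by less than 1.29-fold. The difference was still 17.7 times the counting variance, so the libraries were not copies of each other.

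Of 45556 named genes, 11320 (24.8%) were expressed, 26982 (59.2%) were silent and 7254 lay in between. Protein-coding genes were split more evenly, with 10656 of 21530 (49.5%) expressed and 7499 (34.8%) silent. These shares are the background for the counts of listed genes given below. Among long noncoding genes 274 of 5707 (4.80%) were expressed, and among pseudogenes 246 of 8029 (3.06%). Part of the genes in between lay near the limits: 2580 genes had a count in only 1 library, and 339 reached 1 CPM in only 1 library.

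A small number of genes held most of the transcripts. The 10 most abundant genes took 16.5% of TPM in replicate 1 and 14.3% in replicate 2, and the 100 most abundant took 36.1% and 33.8%. The share of the leading 10 depended on gene length: their mean of 15.3% became 6.86% with the median transcript length and 5.93% of CPM. The leading 50% of TPM lay in 310 genes in replicate 1 and 363 in replicate 2, and with the median transcript length in 573 genes. The 121 genes at a mean of 1000 TPM or more, 115 of them protein-coding, held 37.2% of TPM, whereas the 6030 genes above 0 and below 1 TPM held 0.137%. The same 20 genes led both libraries, and 93 of the leading 100 were shared. Neighbours in the order were often not separable: 13 of the 19 adjacent pairs in the leading 20 stood in the same order in both libraries.

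Mitochondrially encoded mRNAs occupied 12 of the 20 leading positions. They encode core subunits of the respiratory chain and ATP synthase. The highest was mt-Cytb, the cytochrome b of complex III, at 27387 and 26006 TPM. It was followed by mt-Atp6, a subunit of ATP synthase, at 26222 and 21324 TPM, by mt-Co1, the catalytic subunit of cytochrome oxidase, at 23579 and 19725 TPM, and by mt-Nd1, a subunit of complex I, at 23059 and 19204 TPM. These 4 genes were lower in replicate 2 than in replicate 1. The 37 mitochondrial genes together held 17.5% of TPM in replicate 1 and 15.1% in replicate 2, a mean of 16.3% ± 1.65 (SD, n = 2). This share rests on gene length: it was 5.27% with the median transcript length and 4.87% of CPM. Some single mitochondrial values are also uncertain, since the nuclear genome holds near-identical copies. mt-Nd3, a complex I subunit, was at 30.1 and 27.6 TPM, but its nuclear copy Gm28438, 99.0% of whose 31-base words occur in mt-Nd3, was assigned 2080.3 and 1788 TPM. Likewise Gm28661, all of whose words occur in mt-Co2, was assigned 2724 and 2727 TPM. How the reads of such pairs were divided cannot be told from the counts.

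The nuclear genes among the leading 20 numbered 8, and 4 of them serve translation. Eef1a1, which delivers aminoacyl-tRNA to the ribosome, was the most abundant nuclear gene at 10158 and 9603 TPM. Ftl1, the light chain of the iron store ferritin, followed at 7716 and 7192 TPM. Part of their sequence, 49.8% and 57.7% of the 31-base words, also occurs in other annotated genes. Rplp1, Rpl32 and Rps3a1, proteins of the cytosolic ribosome, were at means of 5456 ± 37.2, 4267 ± 117 and 3815 ± 99.8 TPM (SD, n = 2), with 75.1%, 42.0% and 76.9% of their words shared. Ptma, the nuclear protein prothymosin alpha, was at 3999.7 and 4186 TPM, and Actb, beta-actin, at 3781 and 3704 TPM. Pmel, which is best known from pigment cells, was at 4988 and 5101 TPM and ranked 4 among nuclear protein-coding genes.

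Cytosolic ribosomal protein genes were the largest nuclear group named here, with 8.77% and 8.75% of TPM, or 4.25% of CPM. Of 91 genes with such names, 85 were expressed. The silent members were the paralogs Rpl3l, Rpl10l and Rpl39l and the annotated pseudogenes Rps4l and Rps12l1. Rps3a2 and Rps3a3, also annotated as pseudogenes, were among the expressed. All 77 mitochondrial ribosomal protein genes were expressed, with 0.650% of TPM together, as were 61 of 65 translation factors (2.53%) and 74 of 80 nuclear genes for the respiratory chain (2.47%). Replication-dependent histones differed from these groups, with 6 of 70 expressed and 0.0171% of TPM. Most of their mRNAs are known to lack a poly(A) tail, and whether the libraries were selected for such tails is not given in the sources used here.

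**Figure D1:**
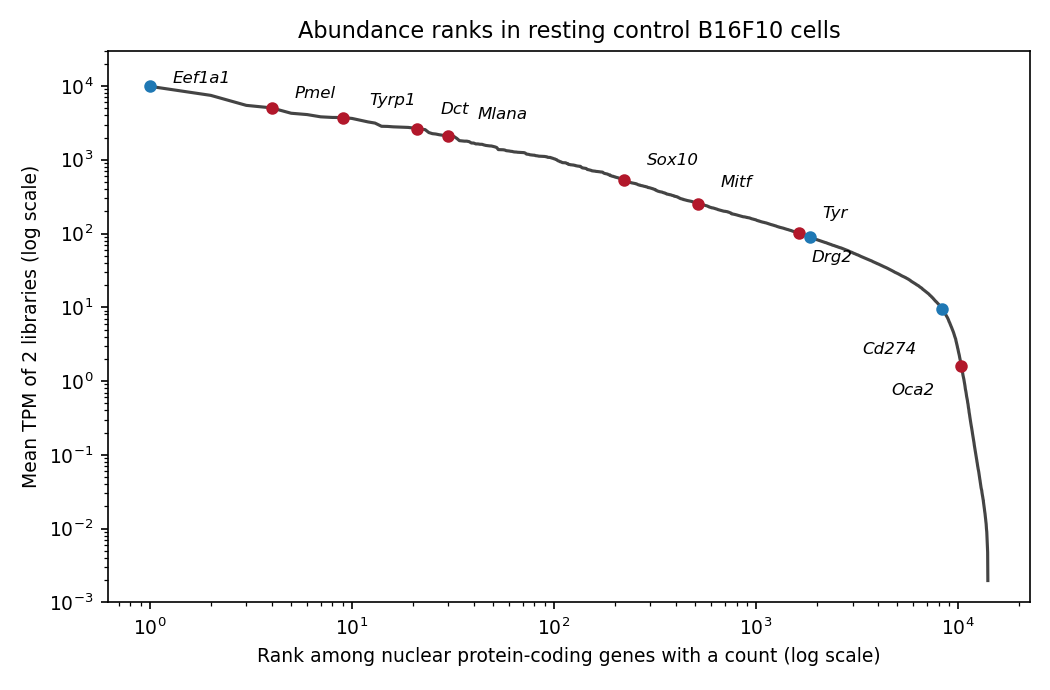
Mean TPM of the 2 libraries (y axis, log scale) against the rank of each nuclear protein-coding gene with a count (x axis, log scale). Red points are melanocyte genes and blue points other named genes; Pmel and Tyrp1 lie among the 10 highest and Tyr at rank 1634.

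The abundant noncoding RNAs were few. Gm10076 led them at 1983 and 2166 TPM, but 82.2% of its 31-base words also occur in Rpl41, a ribosomal protein gene. Cct6a, annotated in GENCODE M21 as a processed transcript although it is known as a chaperonin subunit, was next at 460.1 and 439.8 TPM. Malat1, a nuclear RNA of splicing speckles, was at 281 and 406 TPM, and 2410006H16Rik at 237 and 237 TPM. Gas5 and Snhg6, which host small nucleolar RNAs, were at 131 and 146 and at 116 and 123 TPM. The remaining members of the leading 10 were 1810058I24Rik, Ifi30 (a lysosomal thiol reductase that the annotation also lists as a processed transcript), Gm26917 and 1110038B12Rik, with means between 62.8 and 87.0 TPM. Among imprinted genes, H19, Peg3 and Snrpn were silent, and Mest was expressed at 20.2 and 18.3 CPM. Xist, the RNA that coats an inactive X chromosome, had 7 and 6 counts.

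Several genes for melanin synthesis and melanosome structure were among the most abundant of the line. Of 16 such genes 15 were expressed, and together they held 1.90% of TPM in replicate 1 and 1.99% in replicate 2. Pmel (ENSMUSG00000025359.10, chromosome 10, 128704195 to 128720238, plus strand) forms the fibrils on which melanin is laid down and was the highest, at 5044 ± 79.6 TPM (SD, n = 2). Tyrp1 (ENSMUSG00000005994.14, chromosome 4, 80834123 to 80851719, plus strand), an enzyme of the eumelanin branch, was at 3779 and 3691 TPM and ranked 9 among nuclear protein-coding genes. Dct (ENSMUSG00000022129.4, chromosome 14, 118012790 to 118052244, minus strand), the dopachrome tautomerase, was at 2476 and 2795 TPM. Gpnmb, a glycoprotein related to PMEL, was at 2709 and 2843 TPM, and Mlana, a melanosome protein known as a T cell antigen, at 1977 and 2279.8 TPM. Pmel lay above the other 4 in both libraries, and the means of Gpnmb and Dct differed by less than the replicates of Dct did. The order below Pmel depended on gene length. With the median transcript length Tyrp1 was at 1856 TPM in place of 3735 and Mlana at 883 TPM in place of 2128, while Pmel was at 5736 TPM. With the longest transcript Gpnmb and Dct, at 3757 and 3453 TPM, lay above Tyrp1 at 2986 TPM.

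Tyrosinase mRNA was less abundant than that of the other melanin enzymes. Tyr (ENSMUSG00000004651.6, chromosome 7, 87424771 to 87493512, minus strand), which catalyses the rate-limiting step of melanin synthesis, was at 95.2 and 108 TPM and at rank 1634, below Tyrp1, Dct and Pmel in both libraries. The transporters of the melanosome membrane differed widely. Slc24a5, a cation exchanger, was at 531 and 577 TPM and Slc45a2, which affects melanosome pH, at 274 and 253 TPM. Oca2, an anion transport protein whose loss causes albinism, was at 1.51 and 1.71 TPM, the lowest expressed member, with 1.83 and 2.02 CPM. The pigment cell receptor gene Gpr143 was at 43.96 and 44.00 TPM, the channel gene Trpm1 at 22.04 and 24.1 TPM and the cystine transporter gene Slc7a11 at 14.1 and 10.6 TPM. Ctsd, a lysosomal protease, and the tetraspanins Cd63 and Tspan10 were at means of 1251 ± 17.5, 458 ± 22.8 and 419 ± 23.3 TPM (SD, n = 2). Mcoln3, a channel of endosomes, was the member that was not expressed, with 1 count in both libraries together.

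**Figure D2:**
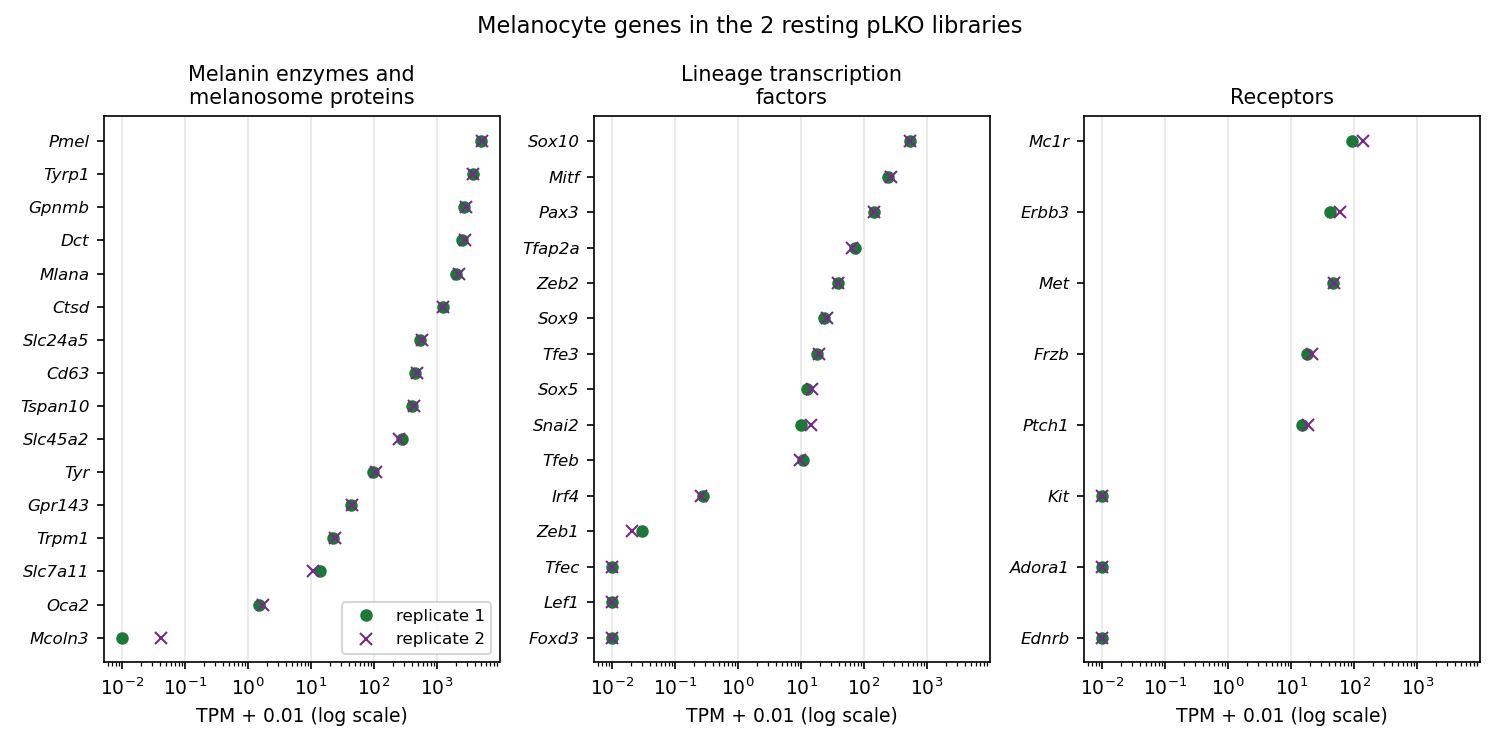
TPM + 0.01 (x axis, log scale) of melanin and melanosome genes, lineage transcription factors and melanocyte receptors in replicate 1 (circles) and replicate 2 (crosses). Points at 0.01 stand for 0 counts; Kit, Ednrb, Adora1, Tfec, Lef1 and Foxd3 lie there in both libraries, and the 2 symbols nearly coincide for the other genes except Mc1r, Erbb3, Snai2, Slc7a11, Mcoln3 and Zeb1.

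Of 15 lineage transcription factors 10 were expressed, against 49.5% of all protein-coding genes. Sox10 (ENSMUSG00000033006.10, chromosome 15, 79154908 to 79165240, minus strand), which specifies neural crest derivatives, was the highest at 527 and 544 TPM, followed by Mitf (ENSMUSG00000035158.15, chromosome 6, 97807052 to 98021349, plus strand), the central regulator of the melanocyte programme, at 241 and 269 TPM. Pax3, which acts upstream of Mitf, was at 146 and 143 TPM and Tfap2a at 72.9 and 64.5 TPM. These 4 stood in the same order in both libraries, although Sox10 was at 286 TPM with the median transcript length, near Mitf at 253 TPM. Of the zinc finger factors that mark states of melanoma, Zeb2 was at 37.8 and 37.9 TPM and Zeb1 at 0.0195 and 0.0106 TPM. The MITF relatives Tfe3 and Tfeb were expressed, at 17.7 and 19.4 TPM and 10.7 and 9.68 TPM, and Tfec was silent. Sox9, Sox5 and Snai2 were at means of 24.5 ± 1.72, 13.8 ± 1.80 and 12.1 ± 2.996 TPM (SD, n = 2). Irf4, which acts with MITF on Tyr in human pigment cells, was at 0.397 and 0.358 CPM, below the limit for expression. Lef1 and Foxd3 were silent. Of the 19 Sox genes 7 were expressed, against 49.5% of all protein-coding genes. After Sox10 the highest were Sox11 at 126 and 153 TPM and Sox4 at 96.3 and 124 TPM, factors of neural and other progenitors. Sox8, the close relative of Sox9 and Sox10, had 2 and 2 counts.

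The receptors were divided, 5 of 8 being expressed, against 49.5% of all protein-coding genes. Mc1r, the melanocortin receptor that raises cyclic AMP and eumelanin synthesis, was at 91.9 and 137 TPM, Met, the receptor for hepatocyte growth factor, at 46.2 and 47.8 TPM, and Erbb3 at 41.1 and 58.5 TPM. Mc1r and Erbb3 were higher in replicate 2, and both differed between libraries by more than 1.29-fold. Kit and Ednrb, which melanoblasts need to migrate and survive, had 0 counts in both libraries, as had Adora1. Frzb and Ptch1 completed the 5 expressed members of 8, at means of 19.5 ± 2.18 and 16.6 ± 2.36 TPM (SD, n = 2).

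Melanosome assembly and transport genes were nearly all expressed, 21 of 23, at 0.318% of TPM together. Rab7, a GTPase of late endosomes, was the highest at 845 and 874 TPM. The melanosome GTPases Rab38 and Rab32 were at 572 and 582 and at 88.8 and 84.96 TPM, so that Rab38 lay above Rab32 in both libraries. The complex that links melanosomes to actin had all 3 of its genes expressed. Rab27a was at 193 and 207 TPM, its effector Mlph at 488 and 487 TPM and the motor Myo5a at 172 and 196 TPM. Rab27b, the close relative of Rab27a, had 2 and 0 counts. The 5 listed genes with Hermansky-Pudlak symbols (Hps) lay between Hps3 at 27.8 ± 0.466 TPM (SD, n = 2) and Hps6 at 10.9 ± 1.80 TPM (SD, n = 2). Subunits of the BLOC-1 sorting complex lay between Dtnbp1 at 105 ± 4.58 TPM (SD, n = 2) and Bloc1s3 at 4.91 ± 1.01 TPM (SD, n = 2). Slc35d3, with 2 and 3 counts, was the other member that was not expressed.

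Of 20 genes linked with loss of the melanocyte programme, 8 (40%) were expressed and 6 (30%) silent, close to the 49.5% and 34.8% of all protein-coding genes. Cdh2, N-cadherin, was at 122 and 123 TPM, whereas Cdh1, the E-cadherin of normal melanocytes, was at 0.218 and 0.502 TPM and not expressed. Nes, an intermediate filament of neural crest progenitors, was at 89.9 and 104 TPM, and Fn1, fibronectin, at 45.2 and 43.3 TPM. Axl, a receptor tyrosine kinase that marks MITF-low melanomas, was expressed at 5.06 and 4.46 CPM. Ngfr, the neural crest stem cell receptor, had 7 and 0 counts, and Egfr, Wnt5a, Sox2, Tnc, Nrg1 and Twist1 had 0.

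Promoters of the pigment genes were read from RefSeq (GRCm38.p6, 250 bases before to 50 after each annotated start) and searched for CATGTG or its reverse complement CACATG, the E-box at the core of the M-box known to bind MITF. The following stretches lie before the RefSeq start and run 5′ to 3′ on the gene's strand, with the E-box in capitals. The first 3, the melanin enzymes, are given over 250 bases and the others around the match, to show where the E-box lies in the genes whose levels are described above.
Tyr (chr7:87493513-87493762, minus strand): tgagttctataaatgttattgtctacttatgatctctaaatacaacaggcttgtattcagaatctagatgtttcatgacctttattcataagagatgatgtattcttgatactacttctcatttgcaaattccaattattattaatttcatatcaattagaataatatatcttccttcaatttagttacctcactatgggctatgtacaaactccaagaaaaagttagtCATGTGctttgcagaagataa
Tyrp1 (chr4:80833963-80834212, plus strand): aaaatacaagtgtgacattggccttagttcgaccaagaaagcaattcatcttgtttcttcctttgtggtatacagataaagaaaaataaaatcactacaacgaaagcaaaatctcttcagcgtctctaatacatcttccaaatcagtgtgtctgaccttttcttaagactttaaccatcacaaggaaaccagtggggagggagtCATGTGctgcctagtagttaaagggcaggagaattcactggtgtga
Dct (chr14:118052247-118052496, minus strand): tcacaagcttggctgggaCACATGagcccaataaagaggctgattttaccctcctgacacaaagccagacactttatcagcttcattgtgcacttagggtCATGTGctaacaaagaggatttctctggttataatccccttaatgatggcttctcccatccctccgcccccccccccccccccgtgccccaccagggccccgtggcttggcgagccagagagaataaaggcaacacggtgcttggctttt
Trpm1 (chr7:64153664-64153729, plus strand): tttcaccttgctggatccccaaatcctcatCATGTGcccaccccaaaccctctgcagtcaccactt
Slc24a5 (chr2:125068084-125068126, plus strand): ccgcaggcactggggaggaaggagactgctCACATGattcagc
Tspan10 (chr11:120442580-120442630, plus strand): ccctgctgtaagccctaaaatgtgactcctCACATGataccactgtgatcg
Mc1r (chr8:123406990-123407066, plus strand): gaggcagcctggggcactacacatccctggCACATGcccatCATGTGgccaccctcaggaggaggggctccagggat
Oca2 (chr7:56239543-56239608, plus strand): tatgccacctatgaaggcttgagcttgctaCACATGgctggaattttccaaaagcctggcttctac

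Counted back from the RefSeq start to its first base, the E-box lay 21 bases upstream in Tyr, 46 in Tyrp1, 232 and 150 in Dct, 13 in Slc24a5, 21 in Tspan10, 141 in Trpm1, 186 in Oca2, and 62 and 51 in Mc1r. A second promoter of Trpm1 held it after the start. The RefSeq start of Tyrp1 lies inside the GENCODE gene given above, so the E-box of Tyrp1 lies within that annotated gene. The stretch shown for Slc24a5 also reaches into its GENCODE gene, with the E-box outside it. Among pigment genes 8 of the 12 with an entry (66.7%) held it, the eighth being Slc7a11 at 74 bases. Pmel, Mlana, Gpr143 and Slc45a2 had no entry. The E-box stood in 14.2% of all 32851 RefSeq promoters and in 13.5% of the 18973 genes matched to the table, where a gene counts if any of its promoters held it. Among protein-coding genes the E-box stood in 9.87% of the expressed, 13.8% of those in between and 17.4% of the silent. Of the listed genes with an entry, it was found in 0 of 10 lineage transcription factors, 2 of 7 receptors and 2 of 20 melanosome assembly and transport genes. Sox10, Pax3, Sox9, Snai2, Zeb1 and Erbb3 had no entry and were not searched. The 2 receptor genes were Mc1r and Adora1, which was silent. Such hits are matches of letters and not measured sites. The E-box was chosen for its known link to MITF and pigment genes, so its share among pigment genes tests nothing. Genes with the E-box ranged in level from Oca2 at a mean of 1.61 TPM to Tyrp1 at 3735 TPM, and Gpnmb, Ctsd and Cd63 had no match in this window.

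The listed driver and tumour suppressor genes of melanoma were expressed except for 3. Of all protein-coding genes 49.5% were expressed and 34.8% silent. Akt1, a kinase downstream of PI3 kinase, was the highest of 33 at 701 and 690.4 TPM. Of the RAF kinase genes Braf was at 24.4 and 27.1 TPM and Araf at 18.9 and 21.02 TPM, with Braf above Araf in both libraries. Of the RAS genes Hras was at 84.7 and 84.4 and Nras at 68.8 and 75.9 TPM, with Hras above Nras in both libraries. Trp53 was at 83.04 and 82.9 TPM, its target Cdkn1a at 164 and 198 TPM and its inhibitor Mdm2 at 130.4 and 129 TPM. Myc, a growth-promoting factor, was at 124 and 139 TPM. Tert, the catalytic subunit of telomerase, was at 1.31 and 2.34 CPM, just above the limit. Among D-type cyclins, which drive entry into the cell cycle, Ccnd2 at 361 and 432 TPM lay above Ccnd1 at 237 and 233 TPM and Ccnd3 at 50.7 and 54.8 TPM.

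Cdkn2a, Cdkn2b and Mycn were the silent members. Cdkn2a and Cdkn2b encode inhibitors of the cyclin D kinases and lie side by side on chromosome 4 (89274471 to 89294653 and 89306299 to 89311039, GRCm38). On one side the next protein-coding gene, Mtap, an enzyme of methionine salvage, had 7133 and 5713 counts. On the other side the next expressed gene was Caap1, with 513 and 510 counts. The 8 protein-coding genes between these flanks, over 5319 kb, held 14 counts in all, and 5 of them, Cdkn2a, Cdkn2b, Dmrta1, Izumo3 and Tusc1, were at 0. The cause was not tested. This neighbourhood was described after its values were seen.

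Families of glycolytic isozymes were mostly led by 1 member. Aldolase was Aldoa at 1471 and 1558 TPM, which held 99.9% of the family's TPM. Pyruvate kinase was Pkm at 1713 and 1858 TPM, with the liver and red cell form Pklr silent, and enolase was Eno1 (98.4% of the family) at 1409.8 and 1519 TPM. Ldha and Ldhb, the subunits of lactate dehydrogenase, were both abundant, at 961 and 1055 and at 557 and 623 TPM. Hexokinase was shared by Hk1 at 129 and 126 TPM and Hk2 at 116 and 183 TPM, and their order differed between the libraries. Glucose carriers were led by Slc2a1 at 47.5 and 59.5 TPM and lactate carriers by Slc16a1 at 109 and 107 TPM.

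Non-muscle forms led the cytoskeletal families. Actb and Actg1 were at means of 3743 ± 54.1 and 2183 ± 10.9 TPM (SD, n = 2), while Acta2 and Actc1 of muscle were silent. Of the 31-base words of Actb and Actg1, 23.5% and 40.2% also occur in other genes. Vim, the filament of mesenchymal cells, was at 1545 and 1552 TPM and held 65.3% of the TPM of the 12 intermediate filament genes listed outside the keratins. Of 51 keratin genes 44 were silent and only Krt80 was expressed, at 8.88 and 6.11 CPM. Myh9 was the main myosin heavy chain at 176 and 181 TPM, and Myh10, another non-muscle form, had 0 counts. Tuba1b led the tubulins at 3539 and 3308 TPM, although 68.9% of its 31-base words are shared, most of them with Tuba1c. Of S100 proteins, small calcium binders, S100a11 was at 550.2 and 733 TPM, S100a1 at 227 and 269 TPM and S100b, a clinical melanoma marker, at 174 and 236 TPM. S100a4 and S100a6 were below the limit, and S100a8 and S100a9 were silent. Lgals1, a secreted galectin, was at 2690.4 and 2893 TPM, and Lgals3 at 0.860 and 0.588 TPM. Anxa5 was the main annexin at 1239 and 1304 TPM.

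At the cell surface, 18 of 50 receptor tyrosine kinase genes were expressed and 15 silent, against 49.5% and 34.8% of all protein-coding genes. The highest were Mertk, a receptor of the TAM group, at 107 and 132 TPM, Ryk, a Wnt receptor, at 111 and 113 TPM, and Epha3 at 111 and 103 TPM, and their order differed between the libraries. The TAM relatives Tyro3 and Axl were at 17.3 and 19.01 and at 3.29 and 2.98 TPM. Itgb1, the beta chain shared by most integrins, was at 557 and 578 TPM and held 72.1% of integrin TPM. Its partners were led by Itga6 at 57.8 and 60.6 TPM, and the leukocyte chains Itgam and Itgax were silent. Of 19 matrix metalloproteinases only Mmp14, which is anchored in the membrane, was expressed, at 99.4 and 106 TPM. It held 96.8% of the family's TPM. Mmp2, Mmp15 and Mmp11 reached 1 CPM in only 1 library, at 1.25 and 0.911, 1.37 and 0.976, and 0.732 and 1.17 CPM.

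Genes by which the immune system reads the cell differed in level at rest. For antigen presentation 11 of 18 were expressed, against 49.5% of all protein-coding genes. The peptide-presenting chains H2-D1 and H2-K1 were at 58.5 and 68.6 and at 12.4 and 20.3 TPM, with 26.7% and 22.8% of their 31-base words shared with other genes, and B2m, their light chain, at 388 and 428 TPM. B2m lay above both in each library. Of the genes for class I peptide loading, Tap1 was at 2.86 and 3.75 TPM and Tapbp at 21.4 and 27.2 TPM. Psmb8 and Psmb9, inducible proteasome subunits, had 9 and 6 counts and 10 and 6 counts. Psmb10, another such subunit, was expressed, with 301 and 240 counts. Class II genes were nearly absent, with 0 counts in both libraries for H2-Aa, 0 and 2 counts for H2-Ab1 and 3 and 1 counts for H2-Eb1. Ciita, their activator, had 1 and 0 counts. The receptor chains Ifngr1 and Ifngr2 were expressed, at 12.8 and 13.2 and at 39.4 and 48.3 TPM. The kinases Jak1 and Jak2, which transmit the signal, were at 62.7 and 69.6 and at 32.4 and 36.3 TPM. Cd274, which encodes PD-L1, was at 7.997 and 10.8 TPM, and Pdcd1lg2, which encodes PD-L2, was silent. Of 9 interferon genes 8 were silent and Ifne had 1 and 0 counts. The chemokine genes Cxcl10 and Ccl5 were expressed, at 60.9 and 60.04 and at 11.5 and 16.4 TPM, whereas Il6, Il1b, Il10 and Ccl2 were silent. Mif, a cytokine made by many cell types, held 93.5% of the TPM of 29 cytokine genes, at 2113 and 2188 TPM. Of its 31-base words 39.1% also occur in other genes. Of 12 cancer-testis and other tumour antigen genes 5 were expressed, against 49.5% of all protein-coding genes. They were led by Maged1 at 212 and 247 TPM, while Prame, Magea4 and Magea10 were silent. Drg2, the target of the hairpin in the other line, was at 91.9 and 88.3 TPM here, and its binding partner Rwdd1 at 181 and 188 TPM.

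Markers of other cell types were listed in 9 groups. None of 16 immune, 8 keratinocyte and epithelial, 6 erythroid, 5 hepatocyte, and 6 germ cell and pluripotency markers was expressed, and the summed level of the immune markers was 0.336 and 0.618 CPM. Ptprc, Cd3e, Pecam1 and Epcam stand for leukocytes, T cells, endothelium and epithelium; Ptprc, Cd3e and Epcam were at 0, and Pecam1 at 0.427 and 0.618 CPM. Among the 7 expressed markers were Mbp and S100b of glia, Pdgfrb and Col1a2 of fibroblasts, Vwf of endothelium and Des of muscle. Vwf lay near the limit, at 1.07 and 1.63 CPM, and Des was at 3.23 and 3.64 CPM. Kdr, Cdh5, Tek and Tie1 of endothelium and Myh1, Myh4 and Myod1 of muscle were at 0. Glial markers were the highest: Mbp, myelin basic protein, was at 1101 and 1303 CPM and S100b at 79.00 and 104 CPM. Schwann cells share the neural crest origin of melanocytes, and both are known to express S100b. The summed level of the 8 fibroblast markers was 29.7 and 27.7 CPM. The fibroblast genes Pdgfrb and Col1a2 were at 10.8 and 11.4 CPM and 18.2 and 15.3 CPM, while Dcn, Lum and Thy1 were at 0. Whether other cells contributed was not tested. In bulk RNA a few cells with much of an RNA and many cells with little of it cannot be told apart.

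Families with narrow tissue roles were almost wholly silent. Over 12 such families with 2503 genes, 2442 (97.6%) were silent and 13 were expressed. Of 1257 olfactory receptor genes 1246 were silent and none was expressed; the highest, Olfr289-ps1, had 11 and 12 counts. All 378 immunoglobulin segments, all 57 keratin-associated proteins and all 11 alpha-defensins were at 0, as were 320 of 329 vomeronasal receptors. Some segments are shorter than a read, such as Ighd2-3 at 17 bases and Ighd1-1 at 23, so 0 counts say little there. Protein-coding genes outside these families were silent in 29.4% of cases, and all named genes, these families included, in 59.2%. The families also hold gene segments and pseudogenes, so the 97.6% and the 29.4% are not of like sets. The 13 expressed members were Krt80 and 12 Hox genes.

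**Figure D3:**
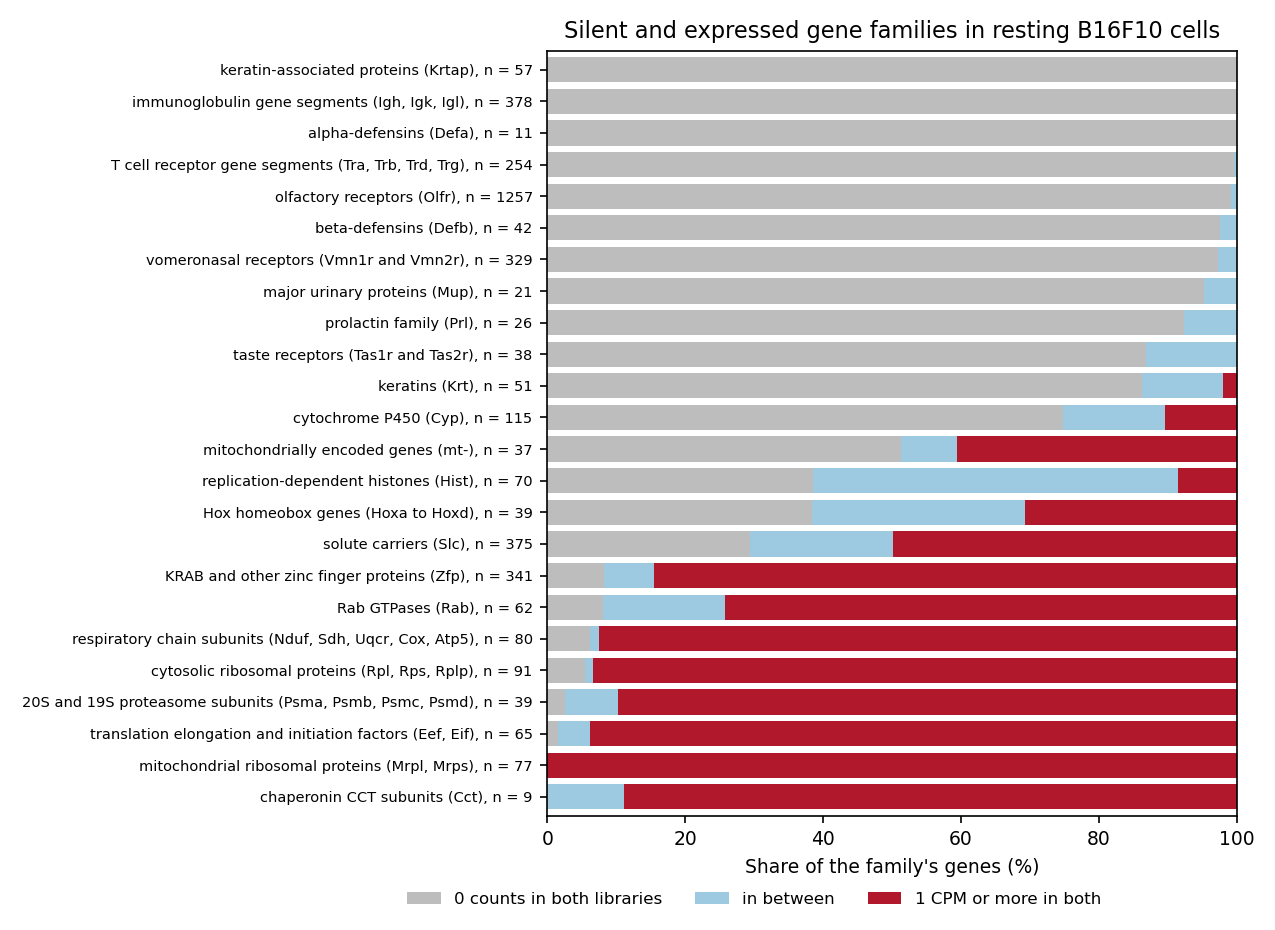
Share of the genes of each family (x axis, percent) that had 0 counts in both libraries (grey), 1 CPM or more in both (red) or lay in between (blue), with the number of genes beside each name. Sensory receptor, immunoglobulin and defensin families are grey to at least 86.8%, and ribosomal, proteasome and translation families are red to at least 89.7%.

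Hox genes, which encode position along the body axis, were expressed in 12 of 39 cases, against 49.5% of all protein-coding genes. The Hoxa cluster had 8 of 11 genes expressed, Hoxd 3 of 9, Hoxb 1 of 10 and Hoxc none of 9. Hoxa10 was the highest at 26.6 and 33.8 TPM, followed by Hoxd13 at 16.9 and 17.96 TPM and Hoxa11 at 11.4 and 10.7 TPM. Hoxa13 was the silent member of its cluster, and Hoxb3 and Hoxd3 were close to the limit, at 1.98 and 2.41 CPM and 1.25 and 2.05 CPM.

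In genomic order, outside those families, protein-coding genes formed 57 runs of 10 or more silent neighbours, which held 1142 genes. The longest lay on chromosome Y, where 178 neighbouring genes from Uty to Gm21748 (1096861 to 90839177) were at 0 and 166 of them carried only a predicted-gene name. In all, 181 of 182 protein-coding Y genes were silent, and Eif2s3y had 2 counts in replicate 2. The second run, 86 genes on chromosome 14 (3030002 to 7044970), held 83 predicted genes. The third was the epidermal differentiation complex on chromosome 3 (92432582 to 93449077), 41 genes, most of which serve the cornified layer of keratinocytes, among them 21 late cornified envelope genes, 5 small proline-rich genes, Ivl and Flg. The nearest expressed genes were Gm9774 at 13.4 and 18.1 CPM and S100a11 at 85.9 and 112 CPM. Over all protein-coding genes of a chromosome, the families above included, the expressed share ran from 59.7% on chromosome 12 down to 39.2% on chromosome 7, 36.9% on the X and 0 of 182 genes on the Y.

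A shorter run on chromosome 15 (74516195 to 75599481) was chosen after its values were seen. It held 29 protein-coding genes from Adgrb1 to Gpihbp1, including Arc, Jrk, Them6, Lynx1 and the Ly6 genes Ly6a, Ly6c1, Ly6d and Ly6e. Ly6 genes encode small lipid-anchored surface proteins, and Ly6e is active in many cell types. All 52 table genes of any kind in this interval, 23 of them noncoding, had 0 counts. The nearest expressed genes were Ptp4a3, at 32.3 and 25.04 CPM, and Zfp41, at 15.7 and 16.4 CPM. Between Ptp4a3 and the run lay Mroh5 and Gm6569, with 1 and 0 counts and 0 and 2 counts. The cause was not tested.

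Silent and expressed genes differed in promoter composition. A promoter was classed as CpG-rich where CpG reached 0.6 of the number expected from its C and G and these bases made up at least 50% of its 300 bases. This held for 78.3% of 8558 expressed protein-coding genes, 33.1% of 2385 genes in between and 14.1% of 5446 silent genes. The median ratio of observed to expected CpG was 0.814, 0.426 and 0.210 in these classes. TATAAA or its reverse complement TTTATA, which does not overlap the E-box, stood in 7.64% of the expressed, 13.7% of the intermediate and 25.05% of the silent genes. Over the 32851 promoters it was present in 13.6%. Of the 12 pigment genes with a RefSeq entry, 11 were expressed and only Ctsd was CpG-rich. The median ratio of the 12 was 0.259, and Tyr had no CpG in 300 bases. Of the 20 melanosome assembly and transport genes with an entry, 17 were CpG-rich. The difference between lists was described and not tested.

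**Figure D4:**
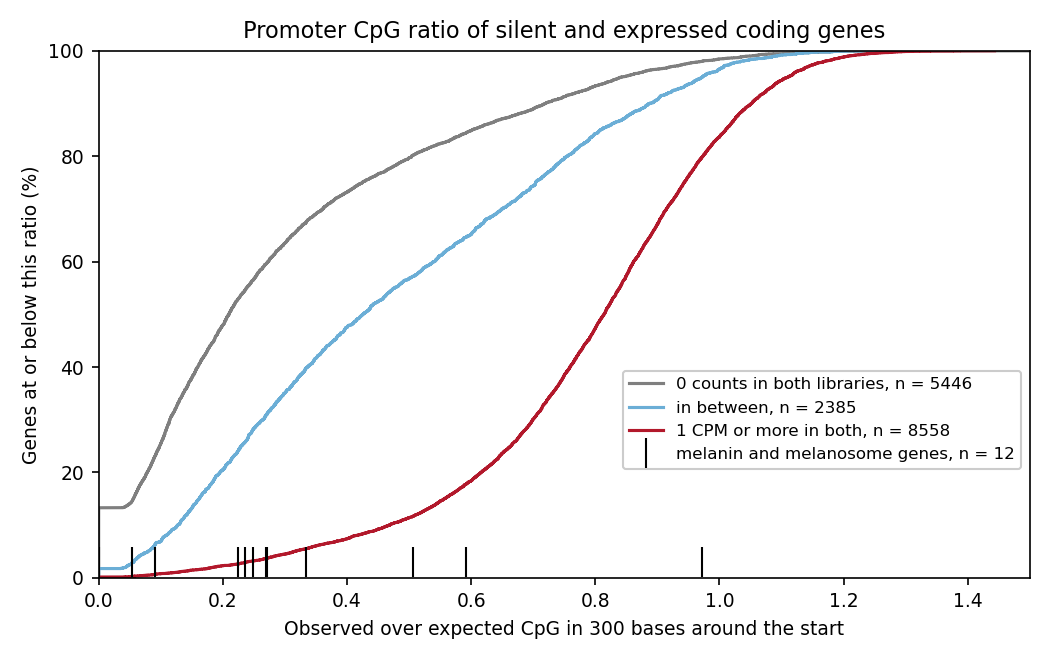
Cumulative share of protein-coding genes (y axis, percent) by the ratio of observed to expected CpG in the 300 bases around the start (x axis), for silent genes (grey), genes in between (blue) and expressed genes (red). Black ticks mark 12 melanin and melanosome genes; all but Ctsd lie below 0.6, where most silent genes and a smaller share of expressed genes lie.

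The 2 libraries differed most in a few genes. Of the 9028 genes with at least 10 CPM in either library, 15 differed by more than 2-fold, 12 of them higher in replicate 2. The 5 with the largest ratio of replicate 2 to replicate 1 were Kbtbd11, a member of the kelch repeat family, at 5.64 and 19.3 CPM, Slc16a3, the lactate exporter MCT4, at 7.53 and 23.03 CPM, Vegfa, the angiogenic growth factor, at 17.5 and 42.5 CPM, Neat1, the RNA of nuclear paraspeckles, at 78.3 and 187 CPM, and Tmem254b at 5.12 and 10.96 CPM. The 5 on the other side were 2210418O10Rik, Gm10073, Rpl17-ps8, Etv5, an ETS factor downstream of ERK, and Gm10925. Etv5 was at 21.1 and 13.1 CPM. All 31-base words of 2210418O10Rik, Gm10925 and Tmem254b occur in other genes; Tmem254a, which matches Tmem254b, was lower in replicate 2, at 14.5 and 10.8 CPM.

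Genes known to rise in hypoxia were compared as a list after Slc16a3 and Vegfa had been seen, so their count describes the libraries and tests nothing. Of the 37 listed, 33 were expressed, and 31 of those (93.9%) were higher in replicate 2, with a median log2 ratio of 0.29. Over all 11320 expressed genes 64.0% were higher in replicate 2, with a median of 0.05. Slc16a3, Vegfa, Ak4, Ddit4 and Bnip3 were more than 2-fold higher in replicate 2. Bnip3, a mitochondrial protein of mitophagy, was at 30.5 and 62.9 CPM, while the glycolytic genes Gapdh and Pgk1 differed little (log2 ratios 0.00 and 0.03). Of the 13 mitochondrial mRNAs 12 were lower in replicate 2, with a median of -0.30 over the 13. The exception was mt-Nd6, the only one encoded on the light strand, at 768 and 1037 CPM. The cause of these differences was not tested.

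**Figure D5:**
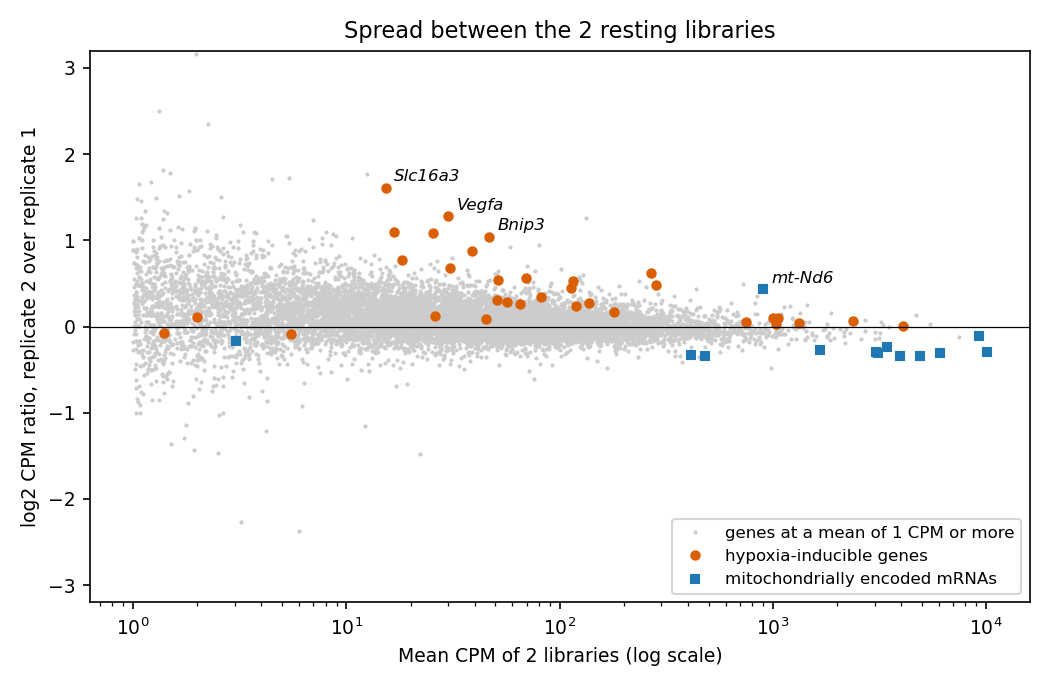
Log2 CPM ratio of replicate 2 over replicate 1 (y axis) against mean CPM (x axis, log scale) for genes at a mean of 1 CPM or more (grey), 33 expressed hypoxia-inducible genes (orange) and 13 mitochondrial mRNAs (blue). Most orange points lie above 0, led by Slc16a3, and all blue points except mt-Nd6 lie below it.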

How the data were processed

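RNA-seq of 8 libraries was deposited, and the 2 resting pLKO libraries were used. The values are estimated counts per gene that the authors deposited, and 86.1% and 86.5% of them were whole numbers within 0.0015. STAR, Salmon 1.5.2 and mm10 are named per the submitters' processing notes. No source used here gives the tool that summed transcripts to genes, its annotation or the strandedness. The labels' protocols give both 100-base pairs on a HiSeq 1500 and 150-base pairs on a HiSeq 2500.

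Counts were rounded to whole numbers. Of 45583 rows, 27 held names turned into dates (0.211% and 0.212% of counts) and were left out of totals. CPM used the total of named genes. For TPM, 42746 of 45556 names (93.8%) were matched to GENCODE M21 (GRCm38) and divided by merged exon length, and unmatched names held 0.484% and 0.513% of counts. Promoters came from RefSeq (GRCm38.p6). Python 3.11.15, numpy 2.4.6, pandas 2.3.3 and matplotlib 3.10.9 were used, and R 4.3.3 with edgeR 4.0.16 gave TMM factors for an alternative. The computation of levels was tested on simulated data, and that of silent runs, motif positions and exon lengths on small made examples. The classing of genes was not tested in this way.

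With 1 group of 2 libraries no test was made. Named genes were the 20 highest by TPM, the 10 highest long noncoding genes, members of listed groups and families, the 5 largest differences between the libraries in each direction and the 3 longest silent runs. The members and lists were chosen with earlier results of these data known, and the hypoxia list after the values were seen. Alternatives changed the scaling, rounding, gene length, gene set, count filter and detection limit, or left out mitochondrial genes or 1 library. Values of some listed genes are not reported here.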

Additional observations from a re-analysis of the deposited data

How the results depend on the processing

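Of 78 values under 12 alternative settings, 56 moved by less than the spread between the libraries or, for counts of genes, stayed within 1.5 times. The counts of expressed genes and of expressed markers of other cell types did so under every setting run. With the longest transcript the 10 leading genes held 12.3% of TPM, mitochondrially encoded genes 12.5% and ribosomal protein genes 9.92%. With the median transcript length these shares were 6.86%, 5.27% and 6.88%, melanin and melanosome genes held 1.63%, and 573 genes held the leading 50% of TPM. On CPM the values were 5.93%, 4.87%, 4.25%, 2.01% and 876 genes. Without mitochondrial genes the leading 10 held 6.11%, ribosomal protein genes 10.5% and pigment genes 2.32%, and 599 genes held the leading 50%. Among protein-coding genes only, 7499 were silent and ribosomal protein genes held 8.99%. The median absolute log2 difference between the libraries, 0.094, became 0.0985 with TMM, 0.0935 for protein-coding genes and 0.0924 without mitochondrial genes.

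With either library alone, 11405 to 11574 genes reached 1 CPM, 28224 to 28320 had 0 counts, and 7 to 8 markers of other cell types were expressed. The leading 10 held 14.3% to 16.5%, mitochondrial genes 15.1% to 17.5%, ribosomal protein genes 8.75% to 8.77% and pigment genes 1.90% to 1.99%, and 310 to 363 genes held the leading 50%. No value could be had for silent genes under the filter of 10 counts, for the mitochondrial share without those genes, or for the difference between libraries with 1 library. The depth limits silent calls to 0.0472 CPM over both libraries. No paired analysis was possible because only 1 group was described and no groups were compared.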
